A study of Mus musculus with 8 samples.

Results

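Respiratory complex I is the entry point of electrons from NADH into the respiratory chain of mitochondria. The set described here holds 42 of the 53379 genes in the deposited count table of mouse cingulate cortex: 35 nuclear genes with *Nduf* symbols and the 7 mitochondrially encoded *mt-Nd* genes, chosen by symbol as subunits of the complex. The study compared 4 samples from male WT (*Mvp*+/+) mice with 4 from male Mvp KO (*Mvp*-/-) mice, without treatment, and asked whether loss of the major vault protein, the main component of the vault ribonucleoprotein particle, changes gene expression in this region. The *Mvp* line is on C57BL/6N and carries a gene trap, a β-galactosidase and neomycin resistance cassette with a polyA signal in the first intron of *Mvp*, in all cells of the animal. The allele is that of a single trapped line, and the age of the mice used for RNA sequencing is not given in the sources used here. Poly(A) RNA was sequenced from the whole tissue, so fewer cells of a type and less RNA per cell cannot be told apart.

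Complex I has a peripheral arm in the matrix, which takes electrons from NADH and passes them along iron-sulfur clusters to ubiquinone, and a membrane arm, which pumps protons. The core subunits of the peripheral arm are encoded in the nucleus and those of the membrane arm in mitochondrial DNA, and many nuclear accessory subunits surround both arms and are needed for assembly and stability. The complex is therefore made from the transcripts of both genomes, and neurons depend on it for much of the ATP that their ion pumps and synapses use.

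Depth was between 28456504 and 42854368 counts per sample, and 16914 genes passed the filter on low counts and were tested. Levels are given as CPM, the counts of a gene relative to its library's total after scaling with TMM factors. The targeted gene *Mvp* was at 5.49 to 7.89 CPM in the WT samples and 1.44 to 2.13 CPM in the Mvp KO samples, without overlap. WT replicate 4 stood apart from the other WT samples, with a chi-square per gene of 71.7 to 87.4 against each of them, where the other 9 pairs within a genotype had 6.54 to 30.4. In it the summed level of 5 inhibitory neuron markers was 1698 CPM, where it lay between 751 and 922 CPM in all the others. The 5 markers of excitatory neurons summed to between 4314 and 5702 CPM, and those of oligodendrocytes to between 1202 and 2548 CPM in WT and between 1386 and 5208 CPM in Mvp KO. All 35 markers of the 7 cell type lists were detected, and 0 passed the threshold. The labels number the samples as replicates, which the study calls biological, and p-values measure the spread between these 8 samples.

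Of the 42 complex I genes, 40 were tested, and 0 of them differed between the genotypes at an adjusted p under 0.05 (quasi-likelihood test of edgeR, Benjamini-Hochberg adjustment over all genes, adjusted p between 0.969 and 0.997), where 0.00591% of all genes tested did. At an unadjusted p under 0.05 there were 2 members, *Ndufa3* and *Ndufa1*, both lower in Mvp KO. They make 5% of the 40 members tested, where 1.56% of all genes had such a p in either direction and 0.863% were lower. *Ndufa3* was also the 1 member of 40 (2.5%) whose WT and Mvp KO samples did not overlap. Of all genes, 1.52% did not overlap, and 0.692% did not overlap with Mvp KO lower. For 36 of the 40 members tested (90%), *Ndufa3* among them, the 95% interval of the difference lay within 1.5-fold in both directions, as it did for 64.5% of all genes. It reached past 1.5-fold for *Ndufa1*, *Ndufs5*, *mt-Nd5* and *mt-Nd6*, each on the lower side. The log2 fold change was below 0 for 35 of the 40, made up of 30 of the 35 nuclear and 5 of the 5 mitochondrial members tested, where 50% of all genes were below 0. The members rise and fall together between samples, as described further on, so these 35 are not 35 separate observations.

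*Ndufa3* encodes a small accessory subunit of the membrane arm that spans the inner membrane. It lies on chr7:3617373-3620327 of GRCm38, on the plus strand, and has no 50-base window in common with a transcript from elsewhere in the annotation. WT replicates 1 to 4 had 29.2, 34.2, 32.6 and 32.1 CPM, and Mvp KO replicates 1 to 4 had 28.6, 25.4, 24.3 and 24.2 CPM. All 4 Mvp KO samples lay below all 4 WT samples, and the gap between the lowest WT and the highest Mvp KO sample, 0.659 CPM, was smaller than the SD within either genotype (2.08 CPM in WT and 2.04 CPM in Mvp KO, n = 4 each). The log2 fold change was -0.32 (standard error 0.08, 95% interval -0.51 to -0.14). Its unadjusted p was 0.00328 by edgeR's quasi-likelihood test, the seventh smallest of the 16914 genes, and its adjusted p was 0.969. *Mvp* lies on the same chromosome, 123 Mb away. The other members on chromosome 7 are *Ndufc2*, 29.6 Mb from *Mvp*, with a log2 fold change of -0.15, and *Ndufab1*, 4.89 Mb from it, with 0.01.

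The difference at *Ndufa3* was also read against the other subunits of the same library, which cancels the scaling of libraries. *Ndufa3* took 1.64%, 1.73%, 1.68% and 1.598% of the summed counts of the 35 nuclear members in the WT samples, by replicate number, and 1.47%, 1.32%, 1.37% and 1.45% in the Mvp KO samples. The groups were farther apart on this scale, with means of 1.66 ± 0.0552% in WT and 1.40 ± 0.0703% in Mvp KO (SD, n = 4 each), 15.8% lower in Mvp KO. Of the 35 nuclear members, 2 did not overlap on this scale, where 1.97% of all genes did not and 0.219% were lower: *Ndufa3*, the 1 lower member, and *Ndufv1*, which carries the flavin that accepts electrons from NADH. *Ndufv1* had 9.13% to 9.74% of the nuclear counts in WT and 9.81% to 10.1% in Mvp KO. In CPM its level overlapped between the genotypes, with a log2 fold change of -0.01.

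*Ndufa1* encodes a small membrane arm subunit needed for assembly of the complex and is encoded on the X chromosome. Its level was 21.6, 28.6, 27.7 and 26.7 CPM in WT, and 24.3, 22.4, 18.02 and 18.8 CPM in Mvp KO. WT replicate 1 lay below Mvp KO replicates 1 and 2, so the groups overlapped. The log2 fold change was -0.33 (standard error 0.12, unadjusted p = 0.0267 and adjusted p = 0.969 by edgeR's quasi-likelihood test). Its unadjusted p exceeded 0.05 without WT replicate 2 or 3 or Mvp KO replicate 3 or 4, with a highest value of 0.0741. As a share of nuclear complex I counts it ran from 1.22% to 1.45% in WT and from 1.01% to 1.25% in Mvp KO. *Ndufa3* was thus alone among the 40 in separating the genotypes in CPM. That is 2.5% of the members, where 1.52% of all genes did not overlap, so 1 such member says little about the set. *Ndufa3* was not alone in size: the log2 fold changes of *Ndufa1* (-0.33), *Ndufs5* (-0.35) and *mt-Nd6* (-0.43) were farther from 0.

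**Figure D1:**
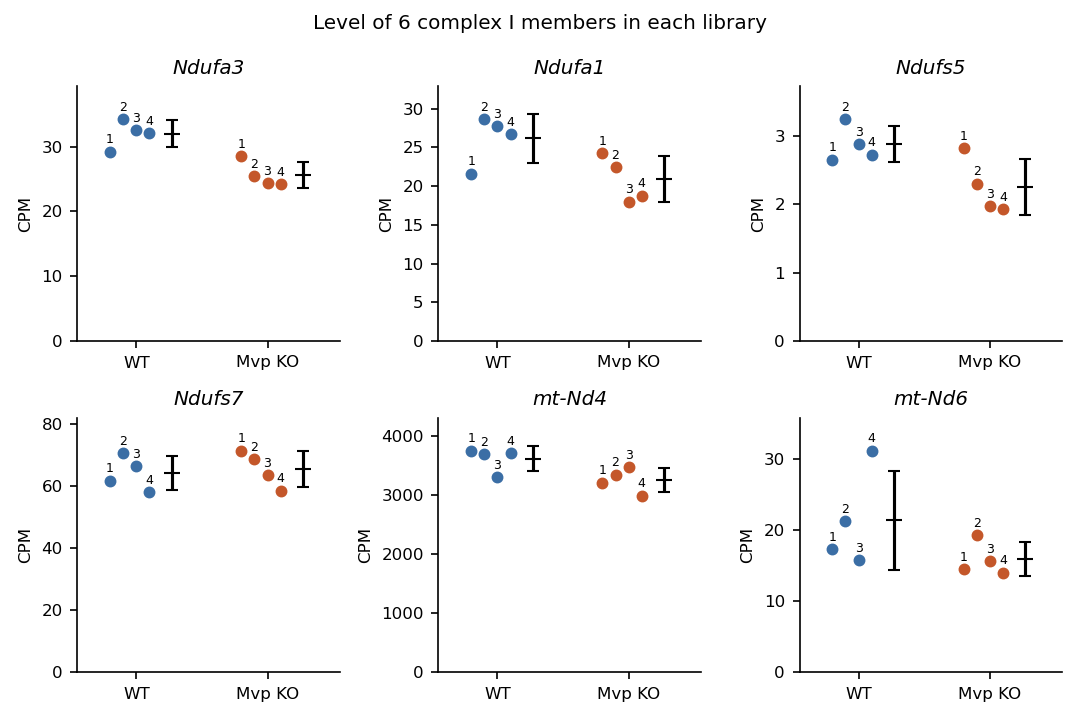
Level (CPM, y axes from 0) of 6 complex I members in each WT (blue) and Mvp KO (orange) library, numbered by replicate, with the mean and SD (n = 4) as a bar on the right of each group. The *Ndufa3* panel is the one in which the groups do not touch, at 29.2 to 34.2 CPM in WT and 24.2 to 28.6 CPM in Mvp KO, while in the *mt-Nd6* panel WT replicate 4 stands above all others at 31.1 CPM.

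The promoter of *Ndufa3* is shown because this is the member whose samples did not overlap between the genotypes in CPM. It is the 250 bases before its start, chr7:3617123-3617372 of GRCm38.p6, plus strand, from RefSeq, with the matches to the motif letters searched in capitals.
Ndufa3: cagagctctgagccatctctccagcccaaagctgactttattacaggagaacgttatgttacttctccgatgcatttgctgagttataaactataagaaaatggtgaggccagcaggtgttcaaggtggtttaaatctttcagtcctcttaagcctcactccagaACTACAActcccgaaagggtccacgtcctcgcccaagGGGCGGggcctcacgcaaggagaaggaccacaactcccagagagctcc
The capitals mark ACTACAA, part of the ZNF143 motif, starting 85 bases before the start, and GGGCGG, the SP1 motif, starting 48 bases before it. A YY1 match (AAGATGGC) lies in the first 50 bases after the start, which are not printed. These letters were searched on both strands of the 300 bases around the start (250 before and 50 after) for the 32 of 35 nuclear members with an entry in the RefSeq table, and none of the matches at *Ndufa3* overlapped another.

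The YY1 letters were in 7 of the 32 promoters (21.9%), against 2.88% of all 27025. The NRF1 core GCATGCGC was in 3 (*Ndufa6*, *Ndufa8* and *Ndufa11*; 9.38% against 2.80%), the ETS letters CCGGAAG in 4 (12.5% against 9.12%), GGGCGG in 15 (46.9% against 35.9%) and ACTACAA in 2 (*Ndufa3* and *Ndufc2*; 6.25% against 3.45%). The base composition differed too, with a median GC content of 59.2% in the members and 52.7% in all promoters. The 7 members with the YY1 letters had log2 fold changes from -0.32 to 0.03, with a median of -0.06, so *Ndufa3* shared these letters with *Ndufa9*, *Ndufb8*, *Ndufc1*, *Ndufs4*, *Ndufs6* and *Ndufs7* without sharing the size of its difference with them. A match is a description of the letters and not a site of binding.

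Among the 6 nuclear core subunits, which carry the electrons, the median log2 fold change was -0.04 and 0 had an unadjusted p under 0.05. The lowest was *Ndufs1*, the largest iron-sulfur subunit, at 170, 180.4, 182 and 203 CPM in WT and 154, 192, 176 and 152 CPM in Mvp KO. Its groups overlapped, with a log2 fold change of -0.12 (standard error 0.09, unadjusted p = 0.215 by edgeR). The highest was *Ndufs7*, which holds the last iron-sulfur cluster before ubiquinone, at 61.7, 70.4, 66.3 and 57.9 CPM in WT and 71.3, 68.5, 63.5 and 58.4 CPM in Mvp KO. Its log2 fold change of 0.03 (standard error 0.09) lay within 1 standard error of 0 and fell to -0.01 without WT replicate 4. *Ndufv1*, *Ndufv2*, *Ndufs3* and *Ndufs8* lay between these, from -0.11 to -0.01, and the 95% intervals of all 6 ran within -0.34 and 0.23.

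All 9 accessory subunits of the peripheral arm had log2 fold changes below 0, with a median of -0.07, and 0 had an unadjusted p under 0.05. The lowest was *Ndufa2*, a subunit with a thioredoxin-like fold, at 24.2, 28.5, 28.8 and 31.1 CPM in WT and 29.6, 23.5, 20.2 and 22.1 CPM in Mvp KO. Mvp KO replicate 1 lay among the WT samples and the other 3 below them all, with a log2 fold change of -0.24 (standard error 0.13, unadjusted p = 0.0922 by edgeR). The member nearest to 0 was *Ndufa12*, at 26.8 to 28.6 CPM in WT and 24.7 to 29.2 CPM in Mvp KO, with a log2 fold change of -0.02 (standard error 0.08).

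The 19 accessory subunits of the membrane arm had a median log2 fold change of -0.10 and held both members with an unadjusted p under 0.05. The lowest was *Ndufs5*, a subunit on the outer face of this arm, at 2.65, 3.25, 2.88 and 2.73 CPM in WT and 2.82, 2.30, 1.97 and 1.93 CPM in Mvp KO. Its level was the lowest of the nuclear members, with 743 counts over all samples, and its log2 fold change of -0.35 had the widest error of the arm (standard error 0.17, unadjusted p = 0.0719 by edgeR). Of its 50-base windows, 31.1% also occur in the processed pseudogene *BC002163* on chromosome 16, which had 134 counts. The highest was *Ndufb4*, at 6.47 to 6.84 CPM in WT and 6.37 to 7.85 CPM in Mvp KO, with a log2 fold change of 0.07 (standard error 0.11). The pseudogene *Ndufb4c* shares 37.0% of the windows of *Ndufb4*, so the level of *Ndufb4* is uncertain. *Ndufab1*, the acyl carrier protein that occurs in both arms, had a log2 fold change of 0.01 (standard error 0.10).

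**Figure D2:**
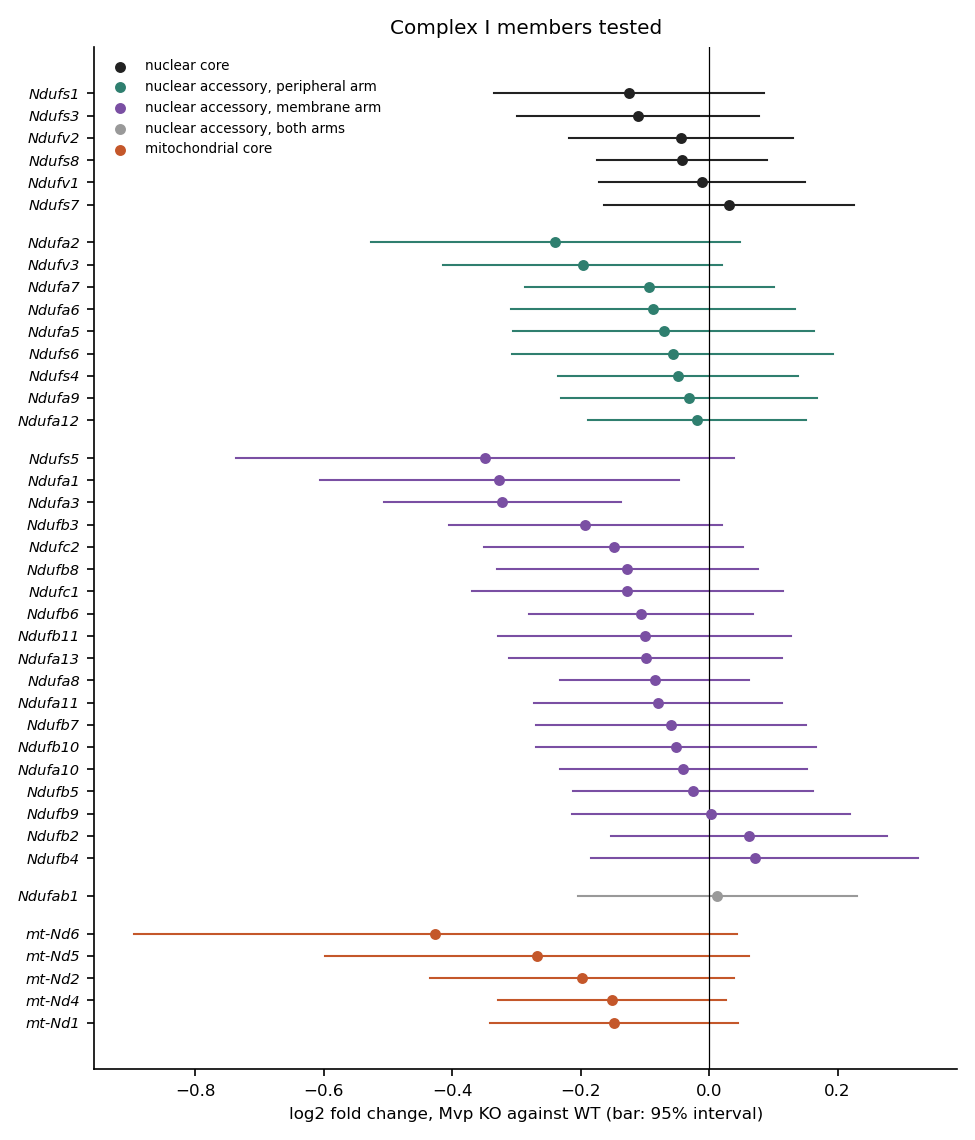
Log2 fold change (Mvp KO against WT, x axis) with its 95% interval for the 40 complex I members tested, by class of subunit. Points lie mostly left of 0, and all intervals but those of *Ndufa3* (-0.51 to -0.14) and *Ndufa1* (-0.61 to -0.05) cross 0.

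Per length, the nuclear members were expressed at 4.23 to 110 CPM per kilobase of transcript (WT means, median 56.6), from *Ndufs5* to *Ndufv1*. Medians were 55.3 for the core, 48.5 for the peripheral and 62.2 for the membrane accessory subunits. The log2 fold change ran with transcript length among the 35 nuclear members (Spearman's rho 0.486 across members, a description, since they share libraries), and did not across 14484 coding genes (0.00654). The 20 members with transcripts under 1000 bases had a median log2 fold change of -0.09, and the 15 longer ones -0.04. All 737 coding genes under 1000 bases had a median of -0.03, with 58.2% below 0.

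The mitochondrially encoded members hold the proton pumping part of the membrane arm, and most of them have copies of part of their sequence elsewhere in the genome. *mt-Nd3* had 1 count over all 8 samples, in WT replicate 2, and *mt-Nd4l* had 0, so neither could be tested. In the annotated transcripts, 98.0% of the 50-base windows of *mt-Nd3*, as long as a read, were found again in the unprocessed pseudogene *Gm28438* and 98.8% of those of *mt-Nd4l* in *Gm10222*, both on the minus strand of chromosome 1. The annotated transcript of *mt-Nd4l*, which overlaps *mt-Nd4* on the same strand, is shown because it makes this plain. It is chrM:9877-10173 of GRCm38, plus strand, 297 bases, and the capitals mark the 3 bases that lie in no window found in *Gm10222*.
mt-Nd4l: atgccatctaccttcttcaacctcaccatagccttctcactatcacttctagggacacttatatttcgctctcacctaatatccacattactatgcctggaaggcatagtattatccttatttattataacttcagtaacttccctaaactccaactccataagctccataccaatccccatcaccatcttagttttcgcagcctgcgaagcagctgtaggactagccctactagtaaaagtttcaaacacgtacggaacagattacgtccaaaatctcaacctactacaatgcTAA
The pseudogenes had 1 and 0 counts themselves. A read from such a stretch maps to both places, and counters commonly leave out such reads, so 0 counts sets no limit on the level of *mt-Nd4l*. The sources used here do not give how the counter treated them. *mt-Nd4* shares 62.2% of its windows with *Gm28439* in the same stretch of chromosome 1 and had 984443 counts, *mt-Nd2* and *mt-Nd5* share 8.19% and 7.61%, and *mt-Nd1* and *mt-Nd6* share none. Among the 6 other protein-coding mitochondrial genes, *mt-Co2*, *mt-Co3* and *mt-Atp6* share 99.5% or more and had 0, 0 and 1 counts. *mt-Atp8* had 0 counts with no shared window in the annotated transcripts.

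**Figure D3:**
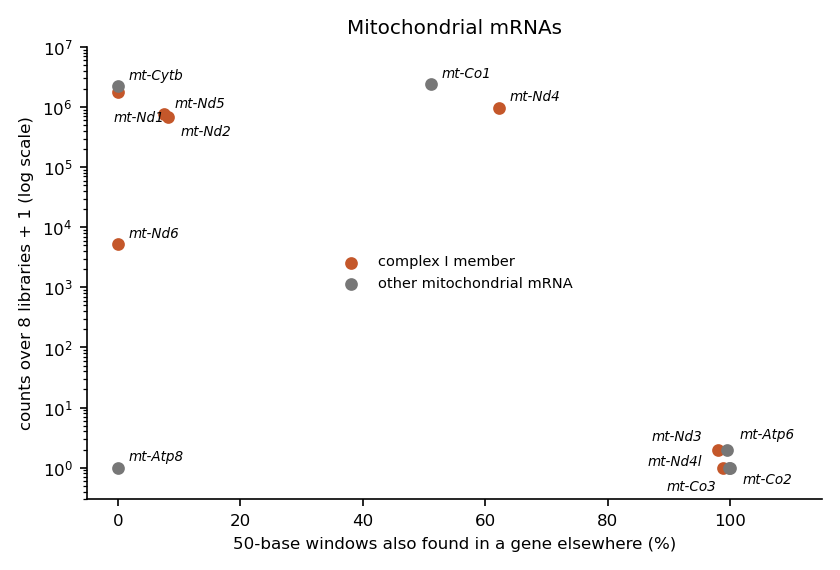
Share of the 50-base windows of each of the 13 protein-coding mitochondrial genes that is also found in a transcript from elsewhere (x axis, percent). The y axis gives the counts of each gene over all 8 libraries plus 1 (log scale). The complex I members *mt-Nd3* (98.0%) and *mt-Nd4l* (98.8%) lie at 1 and 0 counts, and *mt-Nd4* (62.2%) at 984443.

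The 5 mitochondrial members that were tested all had log2 fold changes below 0, from -0.43 to -0.15, and 0 had an unadjusted p under 0.05. *mt-Nd1*, which lines the ubiquinone site, was at 6196, 6554, 6165 and 6843 CPM in WT and 5257, 6451, 6029 and 5511 CPM in Mvp KO. Mvp KO replicate 2 lay among the WT samples and the other 3 below them, with a log2 fold change of -0.15 (standard error 0.09, unadjusted p = 0.119 by edgeR).

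The antiporter-like subunits *mt-Nd2*, *mt-Nd4* and *mt-Nd5* form proton channels. *mt-Nd2* was at 2354, 2646, 2415 and 2799 CPM in WT and 1828, 2336, 2446 and 2295 CPM in Mvp KO (log2 fold change -0.20, standard error 0.11, unadjusted p = 0.0916 by edgeR). *mt-Nd4* was at 3747, 3693, 3296 and 3704 CPM in WT and 3210.0, 3340.2, 3466 and 2988 CPM in Mvp KO (log2 fold change -0.15, standard error 0.08, unadjusted p = 0.0856 by edgeR). In both, a single sample made the groups overlap: Mvp KO replicate 3 was above 2 WT samples for *mt-Nd2*, and WT replicate 3 was below 2 Mvp KO samples for *mt-Nd4*. *mt-Nd5* was at 2810.1, 2696, 2809 and 3607 CPM in WT and 1887, 2376, 2942 and 2697 CPM in Mvp KO (log2 fold change -0.27, standard error 0.15, unadjusted p = 0.1003 by edgeR). Here WT replicate 4 was the highest of all 8 samples, and without it the log2 fold change was -0.16.

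*mt-Nd6* is the 1 mitochondrial member on the minus strand of the annotation. Its counted level per length, 41.2 CPM per kilobase in WT, lay in the range of the nuclear members (4.23 to 110). The 5 tested mitochondrial members had a median of 2460.1 and a highest value of 6729. The libraries were made from poly(A) RNA, so RNA of *mt-Nd6* without a tail may be missing from its level. *mt-Nd6* was at 17.3, 21.3, 15.8 and 31.1 CPM in WT and 14.5, 19.3, 15.7 and 14.0 CPM in Mvp KO. WT replicate 4 was again the highest, and the other 3 WT samples overlapped with Mvp KO. The log2 fold change of -0.43 (standard error 0.21, unadjusted p = 0.0703 by edgeR) was -0.19 without WT replicate 4. That sample also had the high inhibitory neuron markers, and their part in the result was not tested.

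Comparing both sets, the median log2 fold change was -0.08 for the 35 nuclear and -0.20 for the 5 mitochondrial members tested, a difference of 0.12. Without WT replicate 4 the medians were -0.07 and -0.15. The difference was 0.02 without Mvp KO replicate 1 and -0.01 with limma voom. The ratio of summed mitochondrial to nuclear complex I counts is another measure, and it overlapped between the genotypes. Its mean was 8.11 in WT (SD 0.454) and 7.56 in Mvp KO (SD 0.932, n = 4 each). The difference of -0.549 was larger than the SD within WT and smaller than that within Mvp KO. The ratio had values of 8.51, 7.89, 7.58 and 8.46 in the WT samples, by replicate number, and of 6.26, 7.53, 8.37 and 8.08 in the Mvp KO samples. Mvp KO replicates 1 and 2 lay below all WT samples and replicates 3 and 4 among them. Mitochondrial members took 1.47% to 1.58% of all counts in WT and 1.28% to 1.48% in Mvp KO, and nuclear members 0.1804% to 0.201% and 0.167% to 0.204%.

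Within a genotype, many nuclear members shared their highest and lowest samples. WT replicate 1 was the lowest WT sample for 26 of the 35 nuclear members, Mvp KO replicate 1 the highest Mvp KO sample for 28, and Mvp KO replicate 4 the lowest for 24, of which 22 were the lowest of all 8 samples. As the median deviation in log2 level of the nuclear members from their mean, the samples were at -0.07, 0.11, 0.06 and 0.10 in WT and 0.09, 0.02, -0.09 and -0.18 in Mvp KO. The mitochondrial members were at 0.02, 0.11, 0.01 and 0.24 in WT and -0.31, -0.02, 0.02 and -0.15 in Mvp KO. Mvp KO replicate 1, at the WT level for the nuclear set, was the lowest sample for 3 of the 5 mitochondrial members and for their median. The median deviation over all genes stayed between -0.03 and 0.01 in the 8 samples.

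**Figure D4:**
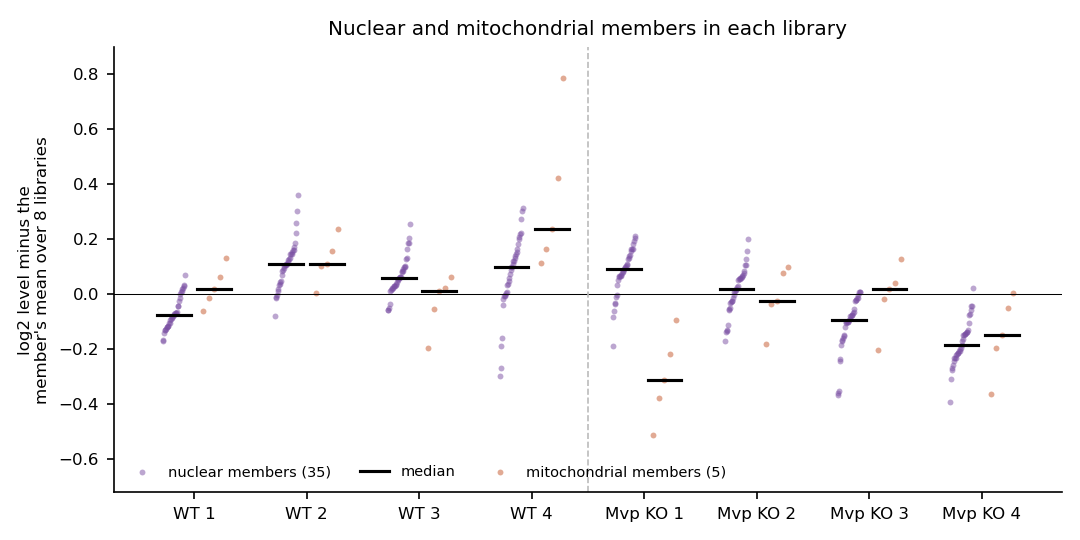
Deviation of each tested complex I member from its own mean over the 8 libraries (y axis, log2), by library, for 35 nuclear (purple) and 5 mitochondrial (orange) members, with black bars at the medians. The nuclear median of Mvp KO 1 lies at 0.09 beside a mitochondrial median of -0.31, and WT 4 has the highest mitochondrial median, 0.24.

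The summed level of the oligodendrocyte markers varied between samples. It was 5208 CPM in Mvp KO replicate 1, 3529 CPM in replicate 2, and 1780 and 1386 CPM in replicates 3 and 4, the same order as the nuclear deviations in Mvp KO. In WT it was 1571, 1956, 2548 and 1202 CPM, which is not the order of the nuclear deviations there, since WT replicate 4 had the lowest marker sum beside a nuclear deviation of 0.10. All 5 markers had positive log2 fold changes (0.64 to 0.81) and 0 passed the threshold. With the mean log2 level of these markers as a covariate, chosen after seeing the data, the median log2 fold change was -0.14 for the nuclear and -0.13 for the mitochondrial members, and 34 of 35 and 5 of 5 were below 0. At an unadjusted p under 0.05 there were then 9 members, all nuclear and all lower (*Ndufa1*, *Ndufa2*, *Ndufa3*, *Ndufa7*, *Ndufa13*, *Ndufb3*, *Ndufb8*, *Ndufb11* and *Ndufs5*), where 1.19% of all genes had such a p, and 0 passed the adjusted threshold. *Ndufa3* had a log2 fold change of -0.38 in this fit. The difference between the sets, 0.12 without the covariate, was -0.01 with it.

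The other genes of the pathway were counted from fixed lists, and 0 passed the adjusted threshold in any of them. Of 4 other *Nduf* genes, the smallest p was that of *Ndufb1-ps*, at 23.2, 29.3, 31.1 and 27.0 CPM in WT and 23.6, 21.8, 19.6 and 17.3 CPM in Mvp KO. Its log2 fold change was -0.42 (standard error 0.12, unadjusted p = 0.00624 by edgeR), with WT replicate 1 below Mvp KO replicate 1. *Ndufb1-ps* is not among the 42 members, so it is outside the comparison of *Ndufa3* with them. Its difference was farther from 0 than that of *Ndufa3* (-0.32), and its p lay between those of *Ndufa3* and *Ndufa1*. Of 19 assembly factors, which build the complex and do not stay in it, 7 were below 0, the median was 0.02, and 0 had an unadjusted p under 0.05. The smallest p was that of *Foxred1*, at 40.2 to 49.4 CPM in WT and 49.98 to 53.6 CPM in Mvp KO. Its log2 fold change was 0.15 (standard error 0.08, unadjusted p = 0.0891 by edgeR). It was the 1 assembly factor of 19 (5.26%) whose groups did not overlap, where 1.52% of all genes did not.

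Of the 6 other protein-coding mitochondrial genes, 2 could be tested. *mt-Cytb*, a core subunit of complex III, had a log2 fold change of -0.18 (standard error 0.08, unadjusted p = 0.0363 by edgeR). *mt-Co1*, of complex IV, was at 8665 to 9095 CPM in WT and 7261 to 8628 CPM in Mvp KO. These groups did not overlap, as was so for 1.52% of all genes. Its log2 fold change was -0.14, with an unadjusted p of 0.106 by edgeR. Both fold changes were of the size seen in the 5 complex I members. Of 13 genes for mitochondrial RNA synthesis and stability, 7 were below 0 and 0 had an unadjusted p under 0.05, the smallest being *Slirp* at -0.17 (unadjusted p = 0.148). Of 7 transcription regulators of mitochondrial genes, 3 were below 0, and the smallest p was that of *Yy1*, with a log2 fold change of 0.04 (unadjusted p = 0.566).

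Among alternative fits, *Ndufa3* stayed below 0 with an unadjusted p under 0.05 in all 17, its log2 fold change between -0.38 and -0.29 and its adjusted p from 0.741 upward. The number of members at an unadjusted p under 0.05 ran from 1 to 6 with single samples left out. In those fits 1.13% to 2.75% of all genes had such a p. The number was 10 with limma voom, where 3.28% of all genes had such a p.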

How the data were processed

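Whole-tissue poly(A) RNA of mouse cingulate cortex was sequenced as single-end reads from 8 samples, 4 per genotype. The authors trimmed reads with cutadapt 1.10, removed ribosomal reads with Bowtie2 2.2.8, mapped the rest to mm10 with STAR 2.5.3a, and counted them per Ensembl gene with HTSeq 0.6.1p1. They deposited 1 table of raw counts. The counting mode and strand setting are not given in the sources used here, so reads of overlapping genes (*Ndufb6* with *Smim27*, *Ndufa13* with *Tssk6*, *Ndufb9* with *Gm49356*) may be lost or shared.

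Symbols came from GENCODE vM21 (GRCm38), which holds 53274 of the 53379 identifiers, and 126 of 128 listed genes were matched (not *Ndufb1* and *Coa1*). The members and lists were chosen with earlier results of these data known. Counts were filtered with filterByExpr (minimum count 10), scaled by TMM and fitted with edgeR 4.0.16's robust quasi-likelihood test in R 4.3.3, with genotype as the single term and all 8 samples. Benjamini-Hochberg adjustment ran over all genes tested (threshold 0.05). The standard error is the log2 fold change over the square root of F. The alternatives were DESeq2's size factors, the Wald test of DESeq2 1.42.0 (the tool the study used), limma 3.58.1 voom with sample weights, 2 other filters, library sizes without mitochondrial genes, a replicate block, 1 surrogate variable (sva 3.50.0), a threshold of 0.1, each sample left out, and an oligodendrocyte score, added after seeing the data. The fits with edgeR (also with DESeq2's size factors or the block), DESeq2 and limma voom were tested on simulated counts. Named members were *Ndufa3*, those past a threshold or without overlap, the mitochondrial members, and the lowest and highest of each nuclear class. Other members are named where copies, overlaps, motifs or other scales concern them, chosen after their values were seen. Shared windows are exact 50-base matches, on either strand, between annotated transcripts, leaving out genes that overlap the member. Promoters came from RefSeq (GRCm38.p6). Depth was 28456504 to 42854368 counts, so counting error is small for the tested members, less so for *Ndufs5* and *Ndufb4*, and large for *mt-Nd3* and *mt-Nd4l*. Intervals cover the spread between samples. Python 3.11.15, pandas 2.3.3 and matplotlib 3.10.9 were used for tables and figures.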

Additional observations from a re-analysis of the deposited data

Results flagged for a closer look

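Over the 40 tested members, 5 of 80 groups of 4 samples of a genotype held a sample whose gap to the nearest other was large for the range of the group (Dixon's test at the 95% level), where chance flags about 1 in 20 (4 of 80). Among the nuclear members, WT replicate 1 was the low sample each time: *Ndufs3* had 27.2 CPM there, with the remaining 3 between 30.8 and 30.9 CPM, *Ndufb7* had 35.6 CPM, with the remaining 3 between 40.5 and 41.2 CPM, and *Ndufb8* had 50.2 CPM, with the remaining 3 between 59.2 and 60.7 CPM. These members share the sample and rise and fall together, so the 3 are not separate signs. Among the mitochondrial members, *mt-Nd4* was at 3296 CPM in WT replicate 3 against 3693 to 3747 CPM, and *mt-Nd5* at 3607 CPM in WT replicate 4 against 2696 to 2810.1 CPM. *mt-Nd3*, which was not tested, also met this rule, with 0.0230 CPM in WT replicate 2, its 1 count, and 0 in the others, where any single count does so.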

How the results depend on the processing

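The count of members past the adjusted threshold was 0 in all 18 alternatives, at a threshold of 0.1 too. Of 307 values recomputed for 18 results, 6 counts moved by over 1.5 times and 6 fold changes of *Ndufs7* or *Ndufa12* turned sign, and the difference between the sets kept its sign in 15 of 17 alternatives. The number of members at an unadjusted p under 0.05, 2 as reported, was 10 with limma voom and 9 with the oligodendrocyte score. The share of all genes with such a p was 1.56% as reported, 3.28% with limma voom and 1.19% with the score. With single samples left out the number was between 1 and 6. It was 1 without WT replicate 2 (1.97% of all genes) or Mvp KO replicate 4 (1.74%). It was 5 without Mvp KO replicate 1 (1.5%) and 6 without WT replicate 1 (2.75%). *Ndufs7* turned below 0 with limma voom (-0.0477), a surrogate variable (-0.0232), the oligodendrocyte score (-0.0524), and without WT replicate 4 or Mvp KO replicate 1 (between -0.0118 and 0.0791 over single samples left out), and *Ndufa12* above 0 without Mvp KO replicate 3 (between -0.0532 and 0.0267). The nuclear median ran from -0.12 to -0.03 with single samples left out, and the mitochondrial one from -0.25 to -0.14. The nuclear median lay 0.02 to 0.19 above the mitochondrial one in those fits, 0.07 above it with a surrogate variable, and -0.01 from it with limma voom or the oligodendrocyte score. Samples of the same number did not pair: the deviations of same-numbered samples correlated at 0.06, 0.27, -0.00462 and 0.04, and only replicate 2 correlated best with its own number. With the replicate block 2 members (*Ndufa3* and *mt-Nd5*) had an unadjusted p under 0.05, as did 1.94% of all genes. With this block 0 members passed the adjusted threshold. *mt-Nd3* and *mt-Nd4l*, at 1 and 0 counts, are not read here, and the spread between 4 samples per genotype limits the others. The causes were not tested.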
